A study of Mus musculus with 12 samples.

Results

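The Obox (oocyte-specific homeobox) genes encode mouse DNA-binding proteins of the paired-like (PRD) homeobox class. The 5 genes listed under an Obox symbol, Obox1, Obox2, Obox3, Obox5 and Obox6, were taken from a table of 23230 genes and described in all 12 oocyte libraries. Obox1, Obox2 and Obox5 were among the most abundant transcripts of every group, Obox3 lay near 1 FPKM, and Obox6 stayed under 1 FPKM in every library. As background, homeobox proteins bind short DNA motifs through the homeodomain and regulate transcription. Obox1, Obox2, Obox5 and Obox7 transcripts are stored by the oocyte, Obox3 is mainly transcribed in the early embryo, and maternal and zygotic OBOX proteins act redundantly in zygotic genome activation, the start of transcription from the embryo's own genome. Obox6 is another family member, known also for promoting reprogramming to pluripotency when it is overexpressed. Obox7 was present in the table as Gm4745, an alias given by RefSeq, and is described beside the 5 members.

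Oocytes came from WT females and from Zar1/2-null females, which lack both Zar1 and Zar2 in every cell after CRISPR/Cas9 editing. ZAR1 and ZAR2 are oocyte proteins that bind maternal mRNAs. All mice were of a C57BL6/ICR hybrid strain. The labels give growing oocytes from 13.5-day-old females, GV oocytes (fully grown, with an intact germinal vesicle) from 21-day-old females 44 h after PMSG, a hormone that stimulates follicle growth, and MII oocytes (ovulated, labelled for metaphase of meiosis II) 16 h after hCG, a hormone that induces ovulation. MII is here the label of the group, since the study describes ovulated Zar1/2-null oocytes that had not completed the first meiotic division, so genotype and meiotic phase cannot be told apart in comparisons that use the null MII libraries. Each of the 6 groups had 2 libraries of 10 pooled oocytes, made with Smart-seq2, which copies polyadenylated RNA. FPKM is the number of mapped fragments per length of exon and per size of library. The authors multiplied it by a factor from the ERCC spike-in, synthetic RNA added to every lysate, so that a value is relative to the spike-in and not to the other transcripts of the library. Nothing states whether replicates came from separate females, so the p-values below measure the spread between these libraries.

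All of the genes were on chromosome 7, in a cluster that spanned 1180 kb of the mm9 build. From one end to the other the annotation listed Gm4745 at chr7:15245057-15251344, Obox2 at chr7:15939386-15983894, Obox3 at chr7:16065174-16225251, Obox1 at chr7:16097689-16142215, Obox5 at chr7:16335483-16345149 and Obox6 at chr7:16418595-16425027. Obox3 and Obox6 are on the minus strand and the others on the plus strand. The Obox1 locus lies inside the Obox3 locus on the other strand, and 0 bases of their annotated exons overlap. The coding sequences were 204 codons long in Obox1, 203 in Obox2, 335 in Obox3, 291 in Obox5, 347 in Obox6 and 218 in Gm4745.

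The coding sequences of Obox1 and Obox2 were identical at 98.7% of 612 aligned bases, and those of Obox1 and Obox5 at 95.45% of 615 bases. Obox6 was the most distant, with 77.9% to 80.1% identity to the others. The 30 coding bases that begin at the tryptophan codon of the homeodomain's conserved tryptophan-phenylalanine pair, in the helix that contacts DNA, are shown because they separate Obox6 from the rest. Capitals mark bases that differ from Obox1, and each is read 5′ to 3′ on the strand of the gene.
Obox1, exon 4, chr7:16141503-16141532, plus strand: tggttcaagaacaaccgagctaagtacagg
Obox2, exon 5, chr7:15983186-15983215, plus strand: tggttcaagaacaaccgagctaagtacagg
Obox3, exon 3, chr7:16211642-16211671, minus strand: tggttcaagaacaaccgagctaagtacagg
Obox5, exon 4, chr7:16343891-16343920, plus strand: tggttcaagaacaaccgagctaagtacagg
Obox6, exon 3, chr7:16419267-16419296, minus strand: tggttcaagaacCaccgGgctaagtCcaAg
Gm4745, exon 4, chr7:15250620-15250649, plus strand: tggttcaagaacaaccgagctaagtacagg
The stretch was the same in Obox1, Obox2, Obox3, Obox5 and Gm4745, and differed at 4 bases in Obox6.

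This likeness bears on the measurement, because the authors kept only uniquely mapped reads trimmed to 50 bases. Of the 50-base windows in the annotated exons, 31.7% were unique on the mm9 chromosomes for Obox1, 33.3% for Obox2, 33.5% for Obox3, 81.5% for Obox5, 95.5% for Obox6 and 84.0% for Gm4745. Obox1 shared 61.2% of its windows with Obox2. On unplaced sequence of the build, copies of 99.0% of the Obox2 windows were found. With that sequence counted, 0% of the Obox2 windows were unique, while the shares of the other genes stayed the same. Which sequences the authors mapped to beyond the chromosomes is not stated. The values of Obox1, Obox2 and Obox3 therefore rest on a part of each transcript, and their levels relative to each other and to other genes are uncertain. Comparisons of the same gene between libraries use the same windows.

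Relative depth, read from the step between the smallest deposited values and refined on more abundant genes, ranged from 0.914 to 1.24 times that of the first WT growing library. Zar1l, the listed symbol of Zar2, fell from 642 ± 3 to 15.3 ± 3.0 FPKM in growing oocytes. Zar1 transcripts, which an edit need not remove, were still read there at 407 and 460 FPKM, against 603 and 725 in WT. In the limma fit described below, Zar1 was lower in null growing (log2 change -0.61, adjusted p = 0.0321) and GV oocytes (-1.37, adjusted p = 0.000371). At MII it was higher (1.29, adjusted p = 0.000381). All 14 oocyte markers were present, among them Oosp1, the highest by its mean over the 12 libraries, at 1711 to 3656 FPKM. The summed level of 23 granulosa and cumulus markers was 26.2 to 30.9 FPKM in WT growing and 7.28 to 12.6 in null growing libraries, 14.2 to 16.8 and 12.3 to 13.8 at GV, and 4.31 to 4.40 and 6.18 to 7.35 at MII. The sum of 13 immune and blood markers was 21.4 to 24.6 and 3.86 to 5.33 FPKM in growing, 12.1 to 12.7 and 2.82 to 5.54 in GV, and 1.04 to 1.08 and 1.05 to 1.28 in MII oocytes. Cyp19a1 and C1qb led the sums in WT growing oocytes, at 17.9 and 21.7 FPKM, while the markers Ptx3, Cd14, Hba-a1 and Hbb-b1 were listed at 0 in every library. The part of such cells in the differences below was not tested.

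Obox5 had the highest FPKM of the members. On the chromosomes 81.5% of its windows were unique, against 31.7% for Obox1 and 33.3% for Obox2, so its order relative to them is uncertain. In WT oocytes its level was 1771 and 1608 FPKM at the growing stage, 1801 and 1411 at GV, and 1207 and 902 at MII. The Zar1/2-null libraries gave 1069 and 784 FPKM at the growing stage, 1049 and 1092 at GV, and 871 and 683 at MII. Every null library lay below both WT libraries of its stage. Of all genes, 11502 reached 1 FPKM in a library and were tested, 4 of the 5 members among them. In this set the mean of Obox5 ranked 41 from the top in WT growing, 33 in WT GV and 14 in WT MII oocytes. In null oocytes it ranked 74, 38 and 27.

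Obox1 was measured at 1082 and 962 FPKM in WT growing, 1144 and 887 in WT GV, and 641 and 473 in WT MII libraries. The null libraries gave 722 and 486, 787 and 813, and 666 and 501 FPKM. Null and WT libraries were apart at the growing and GV stages and overlapped at MII. Its rank from the top was 84, 63 and 33 in WT and 127, 62 and 49 in null oocytes.

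Obox2 followed Obox1 closely, at 997 and 927 FPKM in WT growing, 935 and 900 in WT GV, and 705 and 450 in WT MII libraries. In null oocytes it was 627 and 433, 803 and 759, and 671 and 542 FPKM. As for Obox1, the genotypes separated in growing and GV oocytes and overlapped in MII oocytes. Together, Obox1, Obox2 and Obox5 made up 0.578% ± 0.036 (SD, n = 2) of all FPKM in WT growing, 0.669% ± 0.005 in WT GV and 1.75% ± 0.34 in WT MII libraries. In null libraries these shares were 0.382% ± 0.063, 0.644% ± 0.018 and 1.02% ± 0.05.

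**Figure D1:**
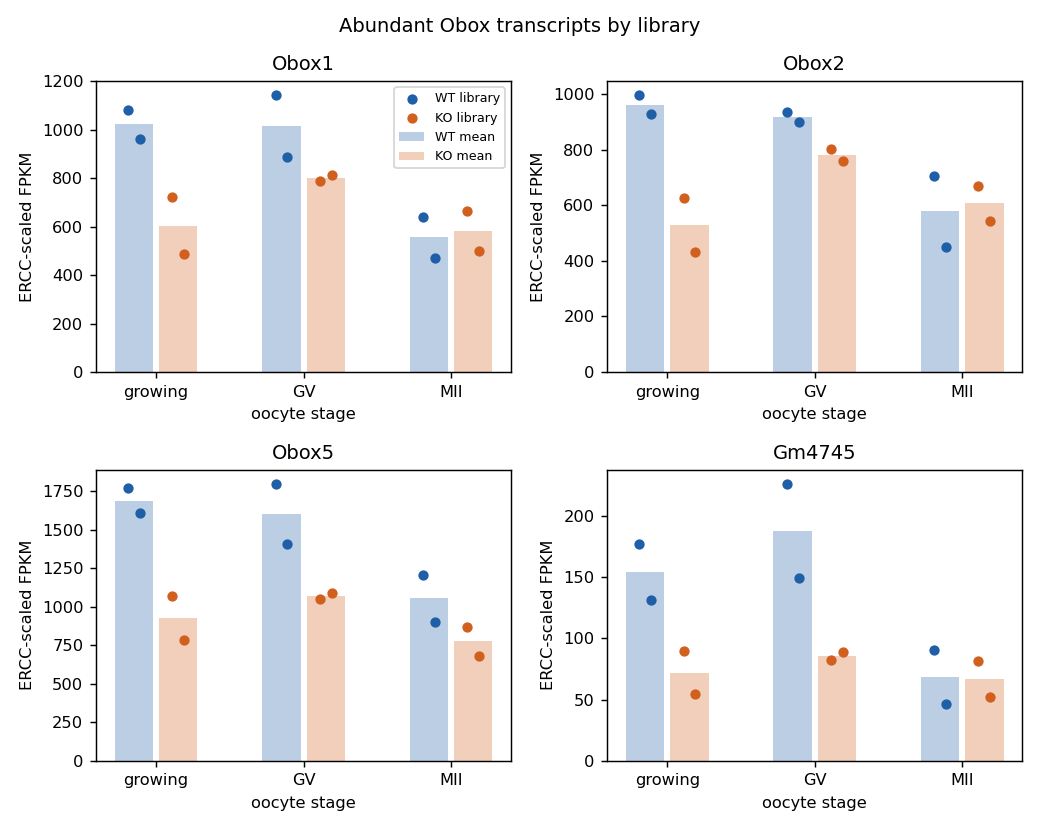
ERCC-scaled FPKM (vertical axes, from 0) of Obox1, Obox2, Obox5 and Gm4745 by oocyte stage. Points are libraries, bars are means of 2 libraries, WT in blue and Zar1/2-null (KO) in orange. The null points lie below both WT points for all 4 genes at the growing and GV stages, and at MII for Obox5.

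The first comparison asked how the loss of ZAR1 and ZAR2 changed each transcript at a given stage. In growing oocytes, Obox1, Obox2 and Obox5 were lower in the null, at 59.1%, 55.1% and 54.8% of the WT mean. The means were 604 ± 167 against 1022 ± 85 FPKM for Obox1, 530 ± 137 against 962 ± 50 for Obox2, and 926 ± 201 against 1690 ± 116 for Obox5 (SD, n = 2 each). On the log2(FPKM + 1) scale, limma fitted with all 12 libraries gave changes of -0.78 ± 0.24 (SE, adjusted p = 0.0243) for Obox1, -0.88 ± 0.23 (adjusted p = 0.0131) for Obox2 and -0.88 ± 0.22 (adjusted p = 0.00896) for Obox5. Obox3 was not called, at -0.29 ± 0.19 (adjusted p = 0.246). Thus 3 of 4 tested members were called lower and 0 higher, when 24.4% of all tested genes were called lower and 10.6% higher. All 4 had null libraries below both WT libraries, as had 47.4% of the tested genes. The median member changed by -0.83 and the median of all genes by -0.16. Relative to the median gene, the 3 called members lay at -0.62, -0.72 and -0.72.

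These calls in growing oocytes were sensitive to the library and the scaling. Without ERCC scaling, the changes of Obox1, Obox2 and Obox5 were -0.50, -0.60 and -0.59, and only that of Obox5 was called (limma adjusted p = 0.0608, 0.0509 and 0.0179). With median scaling (limma adjusted p = 0.121, 0.0922 and 0.0564) and with no filter on low values (0.0975, 0.0641 and 0.0556), 0 members were called. Fitted to the 4 libraries of this comparison alone, Obox1 lost its call (limma adjusted p = 0.0559) and 2 members were called. Leaving out WT growing replicate 1 or null growing replicate 2 left 0 members called, and without WT growing replicate 2 only Obox5 was called. The direction was lower in each of these fits. Each null library lay below each WT library for all 3 transcripts.

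In GV oocytes the difference was smaller and no member passed the threshold. Obox1 was 800 ± 18 in the null against 1015 ± 182 FPKM in WT, a change of -0.33 ± 0.24 (limma adjusted p = 0.268), with a 95% interval from -0.85 to 0.19. Obox2 was 781 ± 31 against 917 ± 25 FPKM, a change of -0.23 ± 0.23 (adjusted p = 0.431, interval -0.74 to 0.28). Obox5 stood nearest to the threshold, at 1070 ± 31 against 1606 ± 276 FPKM and -0.57 ± 0.22 (limma adjusted p = 0.0508). It passed with 1 ERCC factor per group, the geometric mean of the factors of its libraries (limma adjusted p = 0.014). That setting removes the spread of the factors within a group. It also passed among genes that averaged 5 FPKM or more (limma adjusted p = 0.0382) and without a trend (0.0425). The same held on leaving out WT GV replicate 2 (-0.75) or any null growing or MII library. The unadjusted p of Obox5 was under 0.05 and those of the other 3 tested members were not. All 4 tested members had null libraries below both WT libraries, as had 63.6% of all tested genes, of which 40.6% were called lower and 2.83% higher. The median gene changed by -0.38 at this stage, so Obox1 and Obox2 lay 0.04 and 0.14 above it and Obox5 was 0.20 on the log2 scale below it. Without ERCC scaling the sign of Obox1 and Obox2 turned, to 0.12 and 0.22, and Obox5 was at -0.12.

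In the libraries labelled MII, which may differ in meiotic phase between genotypes, the levels of Obox1 and Obox2 overlapped. Obox1 was 584 ± 116 in the null and 557 ± 119 FPKM in WT, with a log2 difference of 0.07 (95% interval -0.45 to 0.59). Obox2 was 607 ± 91 and 578 ± 181 FPKM, with a difference of 0.10 (interval -0.41 to 0.61). Obox5 was 777 ± 133 against 1054 ± 216 FPKM, a difference of -0.43 ± 0.22 (limma adjusted p = 0.157). No member was called at an adjusted or an unadjusted p under 0.05, when 21.5% of all tested genes were called higher and 10.3% lower. Obox5 had null libraries below both WT libraries, as had 27.8% of the tested genes. Without ERCC scaling the Obox5 difference was -0.68 and was called (limma adjusted p = 0.00452), as it was with median scaling at -0.79 (adjusted p = 0.0106). The change of the genotype difference between stages was not called for any tested member, from growing to GV or from GV to MII, and none had an unadjusted p under 0.05. The estimates from growing to GV were 0.45 ± 0.33 for Obox1, 0.65 ± 0.33 for Obox2 and 0.31 ± 0.31 for Obox5 (limma adjusted p = 0.40, 0.215 and 0.546), when 13.9% of all genes passed. From GV to MII the adjusted p of the 4 members ranged from 0.272 to 0.742, with 34.6% of all genes called.

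The study's rule for single genes was a change of over 3-fold between group means with values under 1 FPKM set to 1. By it, Obox1, Obox2 and Obox5 did not pass between genotypes at any stage. Nor did Obox3 and Obox6, whose WT levels were too low for a fall to pass. In growing, GV and MII oocytes 3.54%, 4.20% and 1.32% of the tested genes fell by more than 3-fold, and 0.982%, 0.461% and 7.49% were higher by more than 3-fold.

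The second comparison followed each transcript from growing to fully grown oocytes. In WT no member was called. The 95% intervals of the log2 change ran from -0.54 to 0.50 for Obox1, -0.58 to 0.44 for Obox2 and -0.56 to 0.39 for Obox5. The GV mean was 99.3% of the growing mean for Obox1, 95.4% for Obox2 and 95.03% for Obox5, and the log2 changes of -0.02, -0.07 and -0.08 were not called (limma adjusted p from 0.791 to 0.959), with 2.77% of all genes called higher and 28.7% lower. In the null the GV mean was 132%, 147% and 116% of the growing mean. Obox2 was called higher, by 0.58 ± 0.23 (limma adjusted p = 0.0485), Obox1 was at 0.43 ± 0.24 (adjusted p = 0.133) and Obox5 at 0.23 ± 0.22 (adjusted p = 0.384), when 4.76% of all genes were called higher and 55.9% lower. The call of Obox2 was lost on leaving out any WT growing, WT GV or null GV library, or null growing replicate 2 (0.32, limma adjusted p = 0.332). The median gene fell by 0.29 in WT and by 0.50 in the null. Among the 5179 genes that averaged 10 FPKM or more in null growing or GV oocytes, the GV to growing ratio stood at percentile 96.97 for Obox2, 95.4 for Obox1 and 92.1 for Obox5. The same ratios in WT stood at percentiles 77.2, 81.6 and 76.9 of 5551 genes. Without ERCC scaling the changes in WT were 0.37 for Obox1, 0.32 for Obox2 and 0.31 for Obox5, and none was called. In the null they were 0.99 for Obox1, 1.14 for Obox2 and 0.78 for Obox5, and all 3 were called.

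The third comparison covered meiotic maturation, during which transcription is silent and much of the maternal mRNA is removed. In WT oocytes 4 of 4 tested members fell from GV to MII, where 93.4% of all tested genes were called lower and 0.104% higher. Obox1 fell by 0.87 ± 0.24 on the log2 scale (limma adjusted p = 0.00423), Obox2 by 0.70 ± 0.23 (adjusted p = 0.0132), Obox5 by 0.61 ± 0.22 (adjusted p = 0.0181) and Obox3 by 0.89 ± 0.19 (adjusted p = 0.000775). The MII mean was 54.8% of the GV mean for Obox1, 63.0% for Obox2 and 65.7% for Obox5, against 18.9% for the median of 4924 genes that averaged 10 FPKM or more at either stage. Their MII to GV ratios stood at percentiles 88.5, 95.4 and 96.6 of these genes, from the lowest ratio up. The MII mean of Obox3 was 30.2% of its GV mean, a larger fall than its log2 change shows, since 1 FPKM was added. Its reads were 45 and 38 in the WT GV and 36 and 51 in the WT MII libraries, so this fall rested on the ERCC factors. The calls of Obox2 and Obox5 were lost without WT GV replicate 1 (-0.67 and -0.44) or without WT MII replicate 2 (-0.38 and -0.40).

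In the null, with the same limit on the MII label, the MII mean was 73.0% of the GV mean for Obox1, 77.7% for Obox2 and 72.6% for Obox5, against a median of 36.3% over 4034 genes. The ratios stood at percentiles 78.4, 82.4 and 78.0. The MII mean of Obox3 was 47.3% of its GV mean. None of the 3 abundant members was called, with log2 changes of -0.47 ± 0.24 for Obox1 (limma adjusted p = 0.0976), -0.37 ± 0.23 for Obox2 (adjusted p = 0.174) and -0.47 ± 0.22 for Obox5 (adjusted p = 0.0716), when 68.7% of all tested genes were called lower and 0.209% higher. Obox3 was called, at -0.51 ± 0.19 (adjusted p = 0.0305), and lost its call without null GV replicate 1 (-0.41) or null MII replicate 2 (-0.33). By the study's rule for removed transcripts, a fall of more than 10-fold from GV to MII with means under 1 FPKM set to 1, Obox1, Obox2 and Obox5 did not pass in either genotype, when 15.7% of all tested genes did in WT and 6.66% in the null. Obox3 and Obox6 were too low to pass whatever their change. In bulk samples such as these a lower level in each oocyte and fewer oocytes that carry the transcript cannot be told apart.

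**Figure D2:**
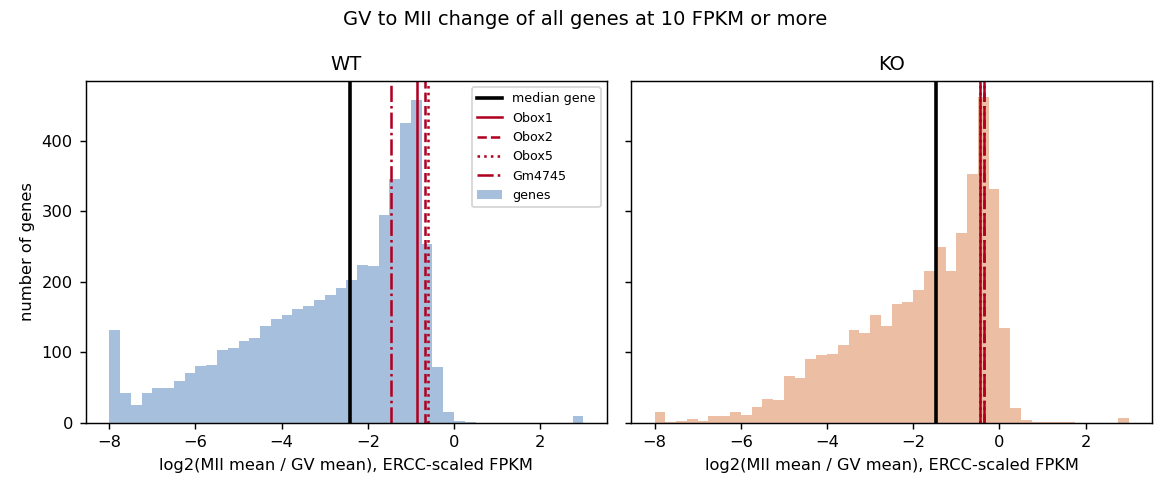
Number of genes (vertical axis) by log2 of the MII mean over the GV mean of ERCC-scaled FPKM (horizontal axis), in WT and Zar1/2-null (KO) oocytes, for genes that averaged 10 FPKM or more at either stage, with the lowest and highest values gathered in the end bins. The black line is the median gene and the red lines are the Obox genes, of which Obox1, Obox2 and Obox5 lie to the right of the median in both panels and Gm4745 does so too.

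The direction from GV to MII rested on the spike-in. The factors applied to the WT MII libraries were 0.225 and 0.228, against 0.836 and 0.697 in WT GV libraries, and those of the null were 0.283 and 0.252 against 0.533 and 0.583. Once the factors were divided out, Obox1, Obox2 and Obox5 rose from GV to MII in WT by 0.88, 1.05 and 1.14 on the log2 scale (limma adjusted p = 0.00108, 0.000799 and 6.7e-05), and in the null by 0.59, 0.69 and 0.59 (adjusted p = 0.0141, 0.0128 and 0.00791). The median gene then changed by -0.43 in WT and -0.28 in the null. Measured against the median gene in WT, the abundant members were higher by 0.41 to 0.67 with the deposited values. The distance was 1.32 to 1.58 without the factors and 1.68 to 1.94 with median scaling. A library factor moves all genes together, so this distance can differ between scalings only through the 1 FPKM added before taking logs. A like sign under each scaling is therefore no check on the scaling. The spike-in values thus gave a fall per oocyte in the polyadenylated RNA that was read, and the share of the library gave a rise. For selected mRNAs, the study describes poly(A) tails that lengthened during maturation in WT oocytes and failed to lengthen in null oocytes. The part of tail length in the GV to MII changes, and in the genotype differences at MII, was not tested.

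**Figure D3:**
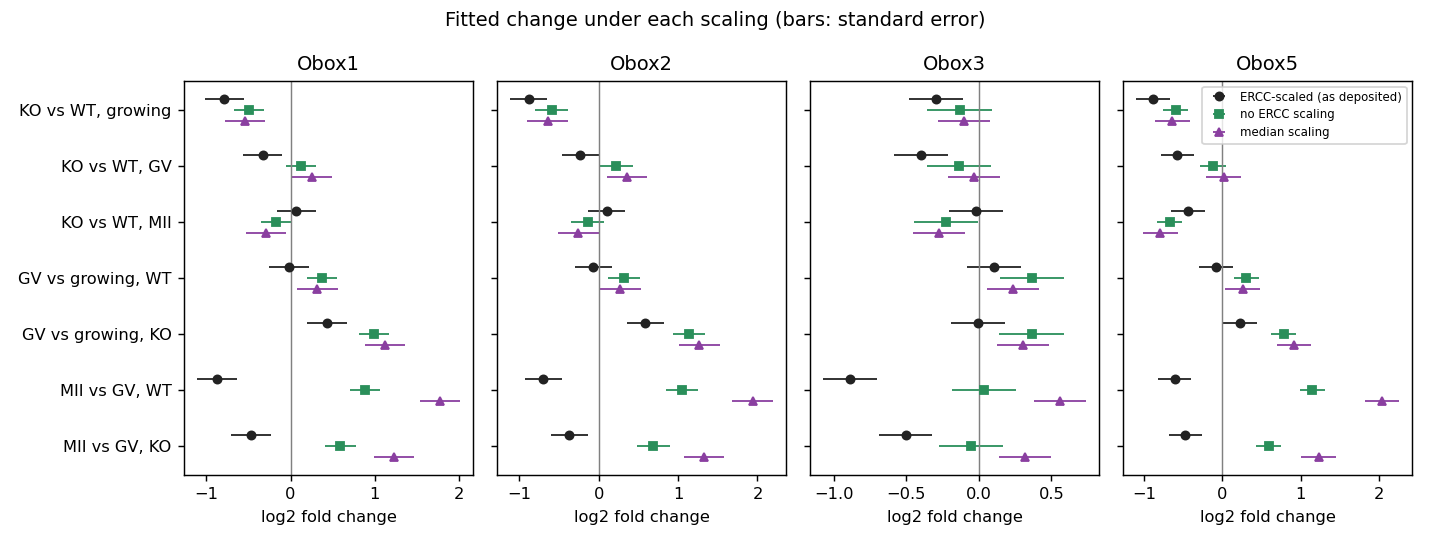
Fitted log2 fold change (horizontal axes, differing in range) with its standard error for Obox1, Obox2, Obox3 and Obox5 in 7 comparisons, from limma on log2(FPKM + 1), with deposited ERCC-scaled values (black circles), without ERCC scaling (green squares) and with median scaling (purple triangles). The 3 scalings fall on the same side of 0 for KO against WT in growing oocytes, and on opposite sides for MII against GV in WT for Obox1, Obox2 and Obox5.

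Ratios between members within a library are free of the ERCC factor. They were chosen after the values had been seen and are given as a description, with no test. The Obox5 to Obox1 ratio was 1.64 and 1.67 in WT growing, 1.57 and 1.59 in WT GV, and 1.88 and 1.91 in WT MII libraries. In the null it was 1.48 and 1.61, 1.33 and 1.34, and 1.31 and 1.36. Each null library lay below both WT libraries of its stage, and the mean log2 difference over stages was -0.28. The Obox5 to Obox2 ratio did not separate the genotypes in growing oocytes, with means of 1.76 in both, and was 1.75 in WT against 1.37 in the null at GV and 1.86 against 1.28 at MII. The Gm4745 to Obox1 ratio had a mean log2 difference of -0.39, with the genotypes apart in growing and GV oocytes and overlapping at MII. The Obox2 to Obox1 ratio, of genes that share most of their windows, was 0.817 to 1.10 over the 12 libraries, with a mean log2 difference of 0.01.

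**Figure D4:**
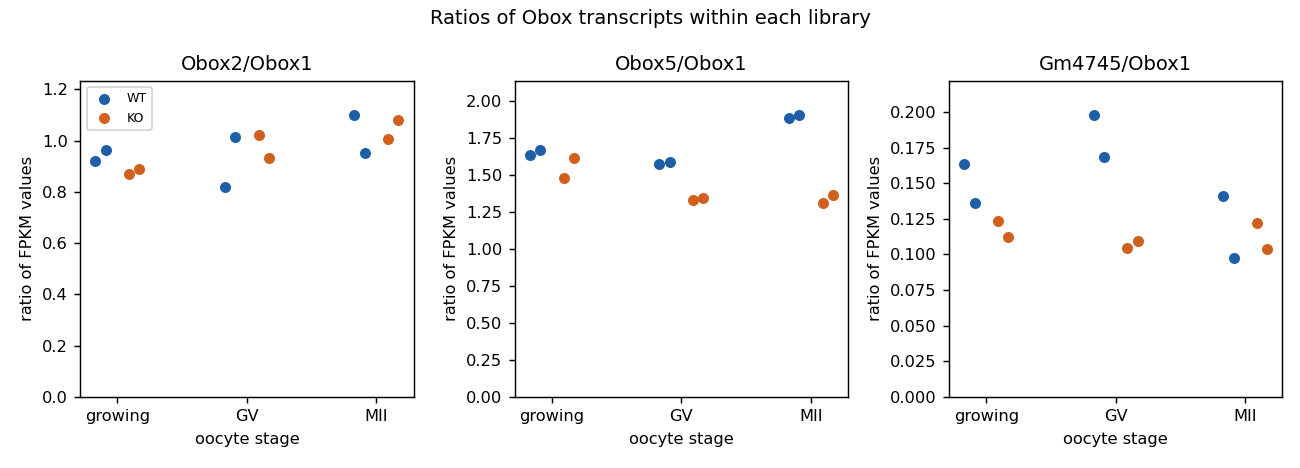
Ratio of FPKM values (vertical axes, from 0) of Obox2, Obox5 and Gm4745 to Obox1 within each library, by oocyte stage, WT in blue and Zar1/2-null (KO) in orange, 1 point per library. The Obox5 to Obox1 points of the null lie below those of WT at every stage, and the Obox2 to Obox1 points of the genotypes overlap at GV and MII.

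Obox3, mainly a gene of the early embryo, was read at low level in oocytes. It was 1.72 and 1.79 FPKM in WT growing, 2.37 and 1.59 in WT GV, and 0.563 and 0.632 in WT MII libraries. The null libraries gave 1.62 and 0.921, 1.39 and 1.10, and 0.782 and 0.395 FPKM. Both genotypes were lower at MII than at GV, and the null lay below WT at the growing and GV stages. These values stood for 23 to 51 reads per library, a counting error of 14.0% to 20.8% of each value, which covers counting only since the reads carry no molecular identifiers. Without ERCC scaling the GV and MII means were 2.56 and 2.64 FPKM in WT and 2.25 and 2.16 in the null, and no Obox3 change was called.

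Obox6 was close to the limit of detection. In WT it was 0.236 and 0.0650 FPKM in growing, 0.391 and 0.0517 in GV, and 0.0387 and 0 in MII libraries. In the null it was 0.268 and 0, 0.123 and 0.187, and 0 and 0.0976 FPKM. The values rested on 0 to 6 reads, and in the 3 libraries with 0 reads a level of up to 0.0459, 0.0674 or 0.148 FPKM would be allowed by a floor of 3 reads. Obox6 did not pass the filter of 1 FPKM and was not tested, and no difference between groups was detectable at this depth.

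**Figure D5:**
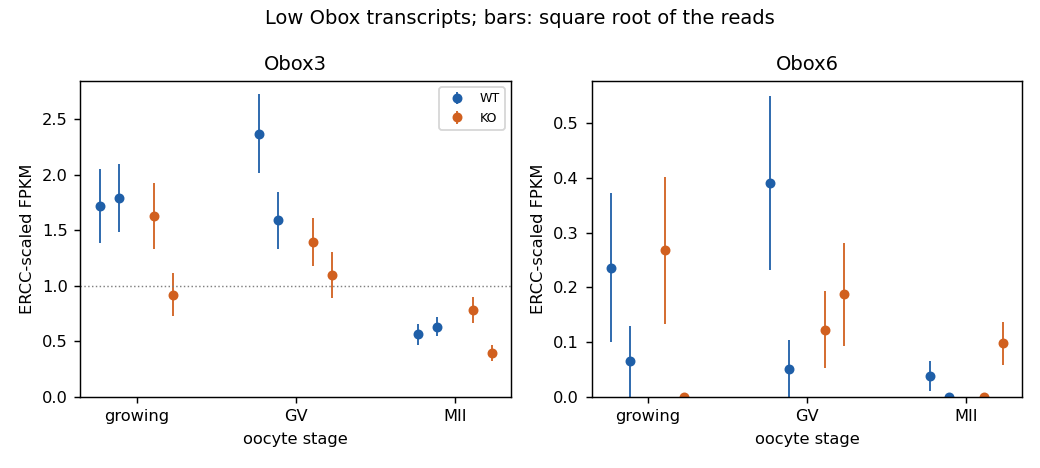
ERCC-scaled FPKM (vertical axes, from 0) of Obox3 and Obox6 in each library by oocyte stage, WT in blue and Zar1/2-null (KO) in orange. Bars show the square root of the recovered reads as a counting error, and the dotted line marks 1 FPKM, above which Obox3 lies in 7 of 8 growing and GV libraries.

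Gm4745 (Obox7), the member at the far end of the cluster, was less abundant than Obox1, Obox2 and Obox5. It was 177 and 131 FPKM in WT growing, 226 and 149 in WT GV, and 90.3 and 46.2 in WT MII libraries. In the null it was 89.4 and 54.4, 82.0 and 89.1, and 81.4 and 52.2 FPKM. The genotypes were apart at the growing and GV stages and overlapped at MII. limma called it lower in null growing oocytes, by -1.11 ± 0.35 (adjusted p = 0.0292), and in null GV oocytes, by -1.10 ± 0.35 (adjusted p = 0.0266), and the MII difference was 0.01 ± 0.35 (adjusted p = 0.999). From GV to MII it fell in WT by 1.49 ± 0.35 (limma adjusted p = 0.0017), to 36.4% of the GV mean, and was at 78.1% in the null, where the fall was not called. The genotype calls were lost without ERCC scaling, at -0.83 in growing (limma adjusted p = 0.0628) and -0.65 in GV oocytes (adjusted p = 0.16), and with no filter on low values (limma adjusted p = 0.133 and 0.129). The growing call was also lost without WT growing replicate 1 (-0.90), WT growing replicate 2 (-1.33) or null growing replicate 2 (-0.76), and the GV call without WT GV replicate 1 (-0.80), null GV replicate 1 (-1.04) or null GV replicate 2 (-1.15).

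Over the 12 libraries, the log2 levels of the tested genes of the family ran in parallel. Pearson's r between Obox1 and Obox2 was 0.96, between Obox1 and Obox5 0.91 and between Obox5 and Gm4745 0.94, and Obox3 was at 0.72 to 0.87 with the other members. These are descriptions over libraries that share stages and ERCC factors. Among 5740 other genes with a group mean of at least 10 FPKM, the closest to Obox1 were 2700029M09Rik (r = 0.97), AU016765 (0.97) and Gm13752 (0.96). The closest to Obox2 were AA545190, Gm97 and Tcl1b3 (0.94 each), the last of these from the Tcl1b cluster of oocyte and early-embryo genes. Obox5 was closest to Lpl (0.99), Clk1 (0.97) and Ppap2a (0.96), Obox3 to Ggct (0.97), Emp2 (0.96) and Ubl5 (0.96), and Gm4745 to Rfpl4 (0.96), Tcl1b1 (0.96) and Sub1 (0.96). Lpl encodes lipoprotein lipase and was at 10.0, 9.54 and 6.88 FPKM in WT and 5.93, 6.93 and 5.14 in null growing, GV and MII oocytes.

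The genes beside the cluster lay below Obox1, Obox2 and Obox5 in every group. Crx, a PRD-class gene that drives photoreceptor development and lies next to Obox6, was at 17.1 ± 2.4 FPKM in WT growing, 8.64 ± 2.25 in WT GV and 0.162 ± 0.091 in WT MII oocytes. In the null it was 8.15 ± 0.86, 3.91 ± 0.72 and 0.0362 ± 0.0026 FPKM. In growing and GV oocytes of both genotypes it was above Obox3 and Obox6. It was called lower in null growing (-0.98 ± 0.18, limma adjusted p = 0.00194) and GV oocytes (-0.96 ± 0.18, adjusted p = 0.00189). From growing to GV in WT it fell by 0.93 ± 0.18 (limma adjusted p = 0.00537). Vmn1r90, a vomeronasal receptor gene on the other side, was above 0 in a single library, at 0.104 FPKM.

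Among 53 other PRD-class homeobox genes, 49 were in the table and 14 were tested, and the list did not move in a single direction in growing oocytes. There 5 of 14 were called higher and 5 lower in the null, beside 10.6% higher and 24.4% lower over all tested genes, with a median change of 0.30 against -0.16 for all genes. Otx1, a brain patterning factor, was higher at 29.5 ± 0.4 against 11.9 ± 0.4 FPKM (1.24 ± 0.24, limma adjusted p = 0.00251), and Alx1, a craniofacial factor, was lower at 0.268 ± 0.136 against 1.80 ± 0.59 FPKM (-1.13 ± 0.15). In GV oocytes 1 was called higher, again Otx1, and 4 lower (2.83% and 40.6% of all tested genes). In MII oocytes 3 were higher and 1 lower (21.5% and 10.3% of all), with Sebox, an oocyte homeobox gene, at 19.96 ± 5.16 against 6.14 ± 0.24 FPKM (1.53 ± 0.21) and Isx at 0.116 ± 0.017 against 1.15 ± 0.90. None of the tested genes of the list other than Nobox and Sebox had a group mean above 30 FPKM.

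Of 17 oocyte transcription regulators, 15 were tested, and 1 was called lower in null growing oocytes, Nfyc, a subunit of the NF-Y factor (80.0 ± 14.3 against 134 ± 6 FPKM, -0.74 ± 0.22, limma adjusted p = 0.022). Over all tested genes 24.4% were lower at that stage. In GV oocytes 5 of 15 were lower and 1 higher, beside 40.6% and 2.83% of all, the extremes being Tbpl2, the oocyte form of the TATA-binding protein (6.62 ± 1.61 against 14.6 ± 2.4 FPKM, -1.04 ± 0.20), and Sohlh2 (3.61 ± 0.55 against 1.95 ± 0.48, 0.65 ± 0.19). In MII oocytes 5 were higher and 1 lower, beside 21.5% and 10.3% of all, with Figla, an activator of zona pellucida genes, at 17.1 ± 7.1 against 0.481 ± 0.290 FPKM and Tbpl2 at 3.06 ± 0.39 against 5.04 ± 0.69. The medians of this list were 0.06, -0.41 and 0.09, against -0.16, -0.38 and 0.06 for all genes.

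Of 30 zygotic genome activation factors and early embryo genes, 16 were tested. In null growing oocytes 4 were called higher and 4 lower, beside 10.6% and 24.4% of all tested genes, from Zscan4d (0.0792 ± 0.0677 against 1.93 ± 0.19 FPKM, -1.44 ± 0.13), a gene of the early embryo's genome activation, to Tfap2c (15.2 ± 1.6 against 5.76 ± 0.17 FPKM, 1.26 ± 0.14), a trophoblast transcription factor. In GV oocytes 7 of 16 were lower and 1 higher, near the 40.6% and 2.83% of all tested genes, and in MII oocytes 1 each, beside 10.3% and 21.5% of all. Among the called genes of the list, the chromatin protein Ctcf had the lowest change at both stages (7.81 ± 1.54 against 21.1 ± 0.8 and 2.97 ± 0.36 against 7.99 ± 0.77 FPKM) and Tfap2c the highest (9.68 ± 1.01 against 6.48 ± 0.48 and 5.75 ± 0.09 against 2.99 ± 0.15 FPKM). The medians were -0.06, -0.46 and 0.12, against -0.16, -0.38 and 0.06 for all genes. Nobox, Nfya and Dux each stand in 2 of these lists.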

How the data were processed

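The 12 Smart-seq2 libraries of 10 mouse oocytes each were grouped by their sample labels. The authors trimmed reads to 50 bases, mapped them to mm9 with TopHat2 2.1.1, kept uniquely mapped reads and ran Cufflinks 2.2.1 on UCSC gene models. The table the authors deposited, and used here, holds FPKM, each library multiplied by a factor derived from its ERCC reads. The methods and the labels give different ages for the growing oocytes, and the label's age is used here. Because ERCC scaling sets the total of a library, an error in the spike-in share moves all genes of that library together.

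The factors were recovered from the deposited digits. Relative depth was first read from the step between small values of low genes and then refined on 400 more abundant genes. Of these same 400 genes, 77.0% were within 0.1 of a whole number in all 12 libraries, which is therefore no independent check. Whole reads of the members were recovered with these depths, and those of Obox5 could not be resolved. The 11502 genes that reached 1 FPKM in any library were fitted with limma 3.58.1 in R 4.3.3 on log2(FPKM + 1), with 1 mean per group, an intensity trend and Benjamini-Hochberg adjustment over all tested genes. The pseudocount makes the change of low genes smaller. The threshold was an adjusted p of 0.05. A permutation test of 2 against 2 libraries cannot give a two-sided p below 0.333. On simulated data for the MII genotype comparison, 199 of 200 genes changed by 6-fold were recovered among 11502, with 8 false calls. That change was larger than any genotype difference of the tested Obox genes, so recovery of changes of their size was not measured. Ratios between members were computed in Python 3.11.15 and are described without a test. Exons, positions and 50-base windows came from the mm9 genome and the GENCODE M1 annotation, whose gene models may differ from those the authors used, and the alias of Gm4745 from RefSeq on GRCm38.p6.

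Named genes were the members and Gm4745, Zar1 and Zar1l, the 3 genes of most similar pattern for each member, the genes beside the cluster, the called member with the lowest and highest change in each list, and the most abundant marker of each marker list. The members and lists were chosen with earlier results of these data known. Ratios, and the fit without ERCC scaling that has a replicate block, were added after seeing the data. Replicate numbers do not pair the libraries in the labels, but the ERCC factors appear to use a separate WT growing reference for each number. Alternatives were other scalings, filters and pseudocounts, the libraries of a comparison alone, no trend, a replicate block and leaving out each library.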

Additional observations from a re-analysis of the deposited data

How the results depend on the processing

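The limits are the small number of libraries, the spike-in on which the level of every library depends, and, for Obox3 and Obox6, few reads. A further limit, in comparisons that use MII libraries, is that only polyadenylated RNA was copied. A pseudocount of 0.1 FPKM, and a floor of 0.1 FPKM in the fold rules, moved no count of called members. Members called were 3 in the null-to-WT comparison of growing oocytes, 0 in GV, 0 in MII, 0 from growing to GV in WT, 1 in the null, 4 from GV to MII in WT and 1 in the null. Without ERCC scaling these were 1, 0, 1, 0, 3, 3 and 3, and with median scaling 0, 0, 1, 0, 3, 4 and 3, where the GV to MII calls were increases. With 1 ERCC factor per group, which removes the spread of the factors within a group, 1 member (Obox5) was called in the GV genotype comparison. From GV to MII in the null 3 were then called. With no filter on low values the counts fell to 0 in growing, 0 from growing to GV in the null, 2 from GV to MII in WT and 0 in the null. When genes had to average 5 FPKM or more, 1 member was called in the GV genotype comparison and 0 from GV to MII in the null, where Obox3 was not tested. Without a trend, 1 was called in the GV genotype comparison. With the libraries of a comparison alone, 2 were called in the growing genotype comparison, where Obox1 was at an adjusted p of 0.0559, 0 were called from growing to GV in the null and 2 from GV to MII in WT. The causes of these moves were not tested.

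Deviations of libraries with the same replicate number correlated at -0.14 to 0.21 over the 15 pairs of groups, so the main fit did not pair them. A correlation over genes cannot see a shift of a whole library. The ERCC factors did tie libraries by number. Both WT growing libraries had a factor of 1, although the study lists different ERCC shares for them. The other factors lay closer to a reference of the same replicate number. The main fit counted this difference as spread between libraries. With the replicate block, 1 member was called in the GV (Obox5, adjusted p = 0.007) and 1 in the MII genotype comparison (Obox5, limma adjusted p = 0.0307), 2 from growing to GV and 3 from GV to MII in the null. The block without ERCC scaling called 1 in the MII genotype comparison, 3 in each of those 2 null comparisons, and 1 in each interaction.

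Several signs turned without the spike-in. Without ERCC scaling, with or without the block, the genotype difference was 0.12 (Obox1) and 0.22 (Obox2) at GV, and -0.17 (Obox1), -0.14 (Obox2) and -0.23 (Gm4745) at MII. From growing to GV the change was 0.37 (Obox1), 0.32 (Obox2) and 0.31 (Obox5) in WT and 0.36 (Obox3) in the null. From GV to MII it was 0.88 (Obox1), 1.05 (Obox2), 0.0362 (Obox3), 1.14 (Obox5) and 0.25 (Gm4745) in WT, and 0.59 (Obox1), 0.69 (Obox2), 0.59 (Obox5) and 0.67 (Gm4745) in the null. The GV to MII interaction was -0.29 (Obox1), -0.36 (Obox2), -0.0904 (Obox3) and -0.55 (Obox5). With median scaling the genotype difference was 0.26 (Obox1), 0.36 (Obox2) and 0.0141 (Obox5) at GV, and -0.29 (Obox1), -0.26 (Obox2) and -0.34 (Gm4745) at MII. From growing to GV it was 0.32 (Obox1), 0.27 (Obox2) and 0.26 (Obox5) in WT and 0.31 (Obox3) in the null. From GV to MII it was 1.77 (Obox1), 1.94 (Obox2), 0.56 (Obox3), 2.03 (Obox5) and 1.13 (Gm4745) in WT, and 1.23 (Obox1), 1.33 (Obox2), 0.32 (Obox3), 1.23 (Obox5) and 1.2975 (Gm4745) in the null. The interactions were 0.0707 (Obox3, growing to GV), and -0.54 (Obox1), -0.62 (Obox2), -0.25 (Obox3) and -0.81 (Obox5) from GV to MII. The change of Obox3 from growing to GV in the null was 0.0033 with 1 ERCC factor per group and 0.0104 with a pseudocount of 0.1 FPKM.

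Leaving out each library in turn, the number of members called ranged from 0 to 3 in the growing and 0 to 1 in the GV genotype comparison, 0 to 2 from growing to GV in the null, 2 to 4 from GV to MII in WT and 0 to 2 in the null. The signs that turned had ranges of -0.15 to 0.29 (Obox1), -0.23 to 0.42 (Obox2), -0.20 to 0.16 (Obox3) and -0.46 to 0.49 (Gm4745) for the MII genotype difference, -0.20 to 0.16 (Obox1), -0.0882 to 0.29 (Obox3), -0.26 to 0.0933 (Obox5) and -0.0295 to 0.57 (Gm4745) from growing to GV in WT, and -0.23 to 0.22 (Obox3) and -0.0634 to 0.64 (Gm4745) in the null. For the interactions they were -0.33 to 0.12 (Obox3) and -0.33 to 0.37 (Gm4745) from growing to GV and -0.0709 to 0.35 (Obox5) from GV to MII, and for the Obox2 to Obox1 ratio -0.0423 to 0.0619.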
